A study of Homo sapiens with 12 samples.

Results

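The arrays compared here are the 4 that carry replicate number 3 in their titles, set against the 8 that carry number 1 or 2, out of 12 arrays in all. They were chosen by the number in the title alone, and the mean of each group of line and treatment was part of the model, so that neither the cell line nor the treatment entered the comparison. The arrays measured RNA from 22RV1 and LnCaP, 2 established human prostate cancer cell lines that both make the androgen-driven secreted protease KLK3, the prostate-specific antigen. The 4 groups were 22RV1 untreated, 22RV1 nicotine-treated (nicotine tartrate at 100 µM for 24 h), LnCaP untreated and LnCaP nicotine-treated, with 3 arrays each; every group is an unedited cell line and not a tissue, and no vehicle is named for the untreated cells. RNA was taken with TRIzol and turned into biotin-labelled cRNA for single-colour Affymetrix arrays, and the values are the log2 levels that the authors deposited. The comparison asks which groups of genes differ between the arrays numbered 3 and the rest, in each line and in both together. The labels do not say what a number stands for, nor whether the replicates were separate cultures, so the p-values speak only for the scatter among these 12 arrays, and that scatter may be technical. The 2 arrays numbered 3 of a line may also share more than a number, and with a single number 3 whatever distinguishes those arrays cannot be told apart from the number itself.

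A cultured cell line changes its RNA with density, feeding, passage and the handling of the dish, and some of its responses are well-known coordinated programs. Cells that lack sterol switch on the enzymes that make cholesterol, through the transcription factor SREBF2. Lysosomes, the acidic organelles that break down proteins, fats and sugars, are built by a set of genes that many stresses raise together, and luminal prostate cells follow androgen, which turns genes such as KLK3 on and others such as UGT2B17 off.

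Array medians lay between 6.61 and 6.71 on the log2 scale. The mean 3 prime minus 5 prime difference of the ACTB and GAPDH control probe sets, a measure of RNA integrity and labelling, was -0.07 to -0.06 on the LnCaP arrays numbered 3 and -0.04 to 0.06 on the other LnCaP arrays, which do not overlap; in 22RV1 it was -0.06 to -0.05 against -0.07 to -0.03. Control probe sets for 28S ribosomal RNA read 7.55 to 7.62 on the 22RV1 arrays numbered 3 against 6.85 to 7.22 on the others, and 7.51 to 7.68 against 7.24 to 7.53 in LnCaP. The 25 genes that most marked LnCaP over 22RV1 on the other arrays averaged 5.16 to 5.20 on the 22RV1 arrays numbered 3 against 4.94 to 5.05 on the other 22RV1 arrays. In LnCaP they averaged 9.61 to 10.05 on number 3 and 9.91 to 10.3 on the others. The 25 markers of 22RV1 averaged 10.67 to 10.68 on the 22RV1 arrays numbered 3 and 10.70 to 10.78 on the other 22RV1 arrays. They averaged 4.50 to 4.55 on the LnCaP arrays numbered 3 against 4.40 to 4.58. The markers were chosen on the arrays not numbered 3, which are also the arrays compared with number 3 here. That choice alone can place the arrays numbered 3 nearer the other line, so these averages cannot show whether line identity differed. Of the 24 measured markers of fibroblasts, leukocytes and endothelium, the arrays numbered 3 differed in 1 in either line, the matrix protein LUM, which was lower in 22RV1 (-1.03 ± 0.19 SE). The part of these measures in the results that follow was not tested, except that the 3 prime over 5 prime measure was also added to the model.

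Over both lines, 1642 genes (13.7%) differed: 713 (5.96% of the 11963 tested) were higher and 929 (7.77%) lower on the arrays numbered 3 at an adjusted p under 0.05 in limma with Benjamini-Hochberg adjustment, here named a call. Most differences were small: 10 of the called genes were more than 1 log2 unit higher and 7 more than 1 log2 unit lower, and the median standard error was 0.071 log2 units. Within 22RV1, 693 genes were higher (5.79%) and 875 lower (7.31%), 13.1% in all. Within LnCaP, 369 were higher (3.08%) and 547 lower (4.57%), 7.66% in all. The counts within gene lists below are to be read against these shares. This does not hold for the 4 lists added after the values were seen, since that choice partly sets their counts. Without regard to a test, number 3 stood above both other arrays in both groups of 22RV1 for 24.7% of genes and under them for 22.1%, and in LnCaP for 20.8% and 20.1%. When every array was shifted to the same median, the called genes split into 878 higher and 792 lower over both lines and 872 higher and 741 lower in 22RV1, so that the excess of lower calls depended on scaling. The per-line counts rest on 2 arrays numbered 3 each: 22RV1 had 673 calls without its untreated and 494 without its nicotine-treated array numbered 3, and LnCaP had 71 and 136 without the same arrays and 555 without its nicotine-treated array numbered 1. Over both lines 786 calls were left without the untreated 22RV1 array numbered 3. With the 3 prime over 5 prime measure in the model, LnCaP had 70 calls and 22RV1 1455.

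The 2 lines shared part of the pattern. The 109 genes called higher in both lines made up 15.7% of those higher in 22RV1 and 29.5% of those higher in LnCaP, and the 186 genes lower in both made up 21.3% and 34.0% of the genes lower in each. Another 25 genes were called in opposite directions, 12 of them higher in 22RV1 and lower in LnCaP and 13 the other way. Over the 11963 genes, which are not independent replicates, the number 3 differences of the lines (the arrays numbered 3 minus the mean of the arrays numbered 1 and 2 of the same group) had a Pearson r of 0.28 and a Spearman rho of 0.33, as a description. Of all the variation of genes about their group means, the shared number 3 difference made up 37.1% with 1 degree of freedom and its difference between the lines 21.3% with 1. The spread between the arrays numbered 1 and 2 made up 27.9% with 4 degrees of freedom, and the change of the number 3 difference with treatment within a line 13.6% with 2.

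**Figure D1:**
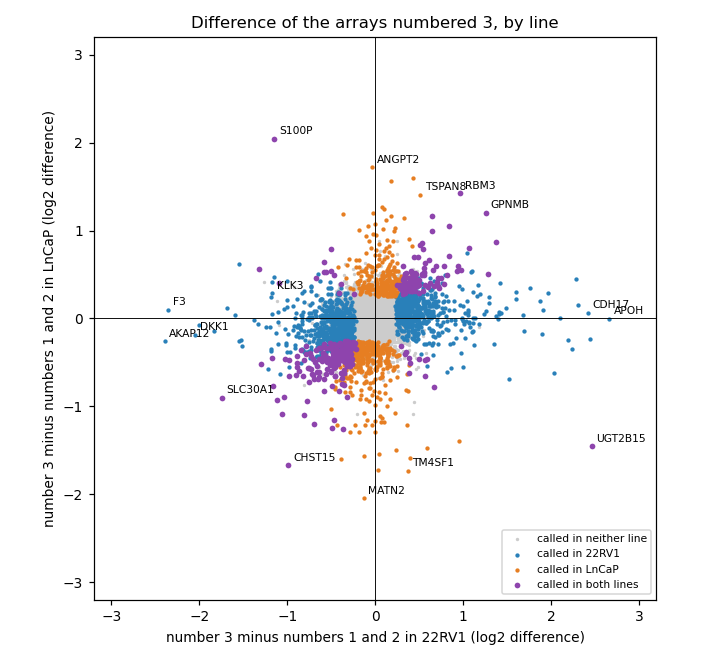
Number 3 difference of each of the 11963 genes in 22RV1 (x axis) and in LnCaP (y axis), both as log2 differences; colour gives the line in which a call was made (adjusted p under 0.05). GPNMB and RBM3 lie to the upper right and SLC30A1 and CHST15 to the lower left, S100P and UGT2B15 lie in opposite corners, and genes such as APOH, CDH17 and F3 lie along the 22RV1 axis.

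Genes of the lysosome and of autophagy were higher on the arrays numbered 3 in both lines. Of 24 measured genes of this list, 13 were called higher over both lines and 0 lower, with a median log2 difference of 0.25 against 0.017 over all genes, and 15 of the 24 stood above both other arrays in all 4 groups, as 8.23% of all genes did. In 22RV1 11 were called higher and in LnCaP 8. The list spans the organelle. NEU1 (sialidase), HEXA and GLA cleave sugars from glycoproteins and glycolipids, CTSA, CTSD and CTSL are proteases, LAMP1 coats the membrane, MCOLN1 is its calcium channel, ATP6V1H and ATP6V0D1 belong to the proton pump, and WIPI1, GABARAPL1 and BECN1 serve autophagy; these are the 13 called genes.

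Short promoter stretches of 4 of these genes are printed because each holds the motif TCACGTGA. This is the core of the CLEAR element that the lysosomal transcription factors TFEB and TFE3 are known to bind. The stretches are from RefSeq on GRCh38.p14 and read 5′ to 3′ on the strand of the gene, with the motif in capitals. Those of CTSA, MCOLN1 and LAMP1 end at the base before the annotated start. That of ATP6V0D1 ends a few bases earlier, its motif starting 60 bases before the start.
CTSA, chr20:45891235-45891334, plus strand: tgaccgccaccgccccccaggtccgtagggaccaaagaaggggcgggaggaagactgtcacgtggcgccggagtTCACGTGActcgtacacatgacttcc
MCOLN1, chr19:7522524-7522623, plus strand: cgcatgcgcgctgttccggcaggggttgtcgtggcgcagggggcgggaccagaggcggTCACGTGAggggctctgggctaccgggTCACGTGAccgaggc
LAMP1, chr13:113297139-113297238, plus strand: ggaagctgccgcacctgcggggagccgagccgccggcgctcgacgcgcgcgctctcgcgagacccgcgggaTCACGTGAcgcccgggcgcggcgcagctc
ATP6V0D1, chr16:67481164-67481263, minus strand: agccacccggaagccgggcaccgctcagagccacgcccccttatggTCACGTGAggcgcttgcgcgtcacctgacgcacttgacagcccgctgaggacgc
The motif, which reads the same on both strands, was searched in the 250 bases before each start, and was chosen after the values were seen. It was present in 4 of the 16 measured genes of the list that have a promoter sequence (25%). Of all measured genes with a promoter 145 of 9563 held it (1.52%), and of all promoters 243 of 27305 (0.89%). The 4 genes with the motif were all called, but so were 11 of the 16, so this says little about the motif and the calls. MCOLN1 holds 2 copies. In the added list of cathepsins and lysosomal hydrolases 3 of 22 genes hold it (13.6%): CTSA again, and GAA (-0.07) and GALNS (0.14), which were not called over both lines. The sterol regulator INSIG1, also not called, holds it too. A match is a description of the letters and not of a site in use, and no measure of the binding of either factor was made.

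NEU1 had the widest difference in the lysosome and autophagy list, 0.78 ± 0.11 (SE) log2 units or 1.71-fold (adjusted p = 0.00209). In 22RV1 it read 9.32, 9.08 and 9.67 on the untreated arrays 1, 2 and 3 and 9.34, 9.20 and 10.48 on the nicotine-treated ones. In LnCaP it read 8.53, 8.87 and 9.49 untreated and 8.98, 9.14 and 9.69 with nicotine. Number 3 was the highest array in each of the 4 groups, and the nicotine-treated 22RV1 array stood highest of all. CTSA, the protease that stabilises NEU1 in one complex, read 9.15, 9.26 and 9.68 and then 9.02, 9.05 and 9.95 in 22RV1, and 8.34, 8.50 and 9.0 and then 8.30, 8.45 and 8.99 in LnCaP. The CTSA difference was 0.65 ± 0.07, with no overlap in any group. MCOLN1 read 8.07, 7.98 and 8.59 and then 8.03, 8.11 and 8.44 in 22RV1, and 7.83, 7.66 and 8.26 and then 7.54, 7.59 and 8.08 in LnCaP. Its difference was nearly the same in the 2 lines, 0.47 ± 0.08 and 0.51 ± 0.08, and the test of the line difference gave 0.04 ± 0.11. LAMP1 had 3 further probe sets, whose differences over both lines were 0.34, 0.48 and 0.55 beside the 0.37 ± 0.07 of the one used.

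The remaining called lysosomal genes had shared differences from 0.19 (BECN1) to 0.55 (WIPI1). NPC1, which exports cholesterol from the lysosome, was called in LnCaP (0.72 ± 0.14) and read 0.00 ± 0.14 in 22RV1, and CTSB and ULK1 had values of -0.16 and -0.17 over both lines that did not pass. Among 32 cathepsins and lysosomal hydrolases, a list added after the values were seen that overlaps the first, 13 were higher and 1, IDUA (-0.47), lower; they include GPNMB (1.23 ± 0.11), described with the single genes, LIPA (0.56 ± 0.08), TPP1 (0.38 ± 0.09), NAGLU (0.36) and SMPD1 (0.30). The count of 13 lysosome and autophagy genes over both lines was 11 to 13 when any 1 array was left out. The count in 22RV1 was 5 without its untreated and 2 without its nicotine-treated array numbered 3; in LnCaP it was 0 without either array numbered 3, 3 without the nicotine-treated array numbered 1, 5 with the LnCaP arrays alone and 0 with the 3 prime over 5 prime measure in the model.

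Enzymes of cholesterol synthesis were higher in both lines. Of 18 measured genes, 12 were called higher and 0 lower over both lines, with a median difference of 0.47; in 22RV1 13 were called (median 0.56) and in LnCaP 6 (median 0.29). Along the pathway, the called genes were ACAT2 (0.77 ± 0.11), which joins acetyl-CoA units, the mevalonate enzymes MVK (0.59 ± 0.08) and MVD (0.69 ± 0.09), the isoprenoid enzymes IDI1 (0.49) and FDPS (0.32), SQLE (0.30) and LSS (0.48), which make and close the sterol ring, and the late sterol enzymes TM7SF2 (0.51), NSDHL (0.38), HSD17B7 (0.46), EBP (0.49) and DHCR7 (0.48). MVD read 7.55, 7.47 and 8.30 in untreated 22RV1 and 7.97, 7.59 and 8.56 with nicotine. In LnCaP it read 6.49, 6.63 and 7.41 untreated and 6.41, 6.49 and 6.79 with nicotine. Number 3 was the highest of its group each time, by the narrowest margin in nicotine-treated LnCaP. TM7SF2 moved alike in both lines: 9.85, 9.66 and 10.30 and then 10.01, 9.78 and 10.41 in 22RV1, and 10.76, 10.63 and 11.20 and then 11.04, 11.12 and 11.55 in LnCaP.

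HMGCS1, the enzyme that makes HMG-CoA, had a wider mean difference, 0.91 ± 0.28, that did not pass (adjusted p = 0.0553). It stood above both others in all 4 groups, but its arrays numbered 1 and 2 lay far apart in untreated LnCaP, at 9.43 and 7.91, with number 3 at 10.57. SC5D, a late sterol enzyme, was the 1 gene of the list whose lines differed by the test of the difference: it had 0.54 ± 0.08 in 22RV1 and -0.04 ± 0.08 in LnCaP, a difference of -0.58 ± 0.11 (adjusted p = 0.0191). That call was lost without the nicotine-treated 22RV1 array or either LnCaP array numbered 3 and with the 3 prime over 5 prime measure. The regulators were not called: SREBF2 had -0.10 ± 0.06 and INSIG1, which holds SREBF2 in the endoplasmic reticulum when sterol is plentiful, 0.06 ± 0.13. Of 9 genes of fatty acid synthesis, SCD was higher (0.33) and ACACA lower (-0.21). The higher call was lost without any 1 of the 4 arrays numbered 3, with array weights and with the 3 prime over 5 prime measure, and the lower one without the untreated array numbered 3 of either line. The sterol count was 9 to 13 when 1 array was left out; in 22RV1 it was 8 without the nicotine-treated array numbered 3, and in LnCaP 0 without the untreated and 2 without the nicotine-treated array numbered 3 and 0 with the 3 prime over 5 prime measure in the model. The sterol regulatory element TCACNCCAC was found, on either strand, in the 250 bases before the start of 1 of 16 sterol genes, SREBF2 itself, and of 78 of 9563 measured genes (0.816%); no match says only that these letters are not in that window.

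Subunits of the proteasome, the protein-degrading barrel and its caps, were higher by small amounts. Of 25 measured subunits, 11 were called higher and 0 lower over both lines, all 25 had a positive difference, and 15 stood above both other arrays in every group; the median was 0.18. The called subunits were PSMA3, PSMA5, PSMA7, PSMB1, PSMB2 and PSMB6 of the barrel and PSMC2, PSMC3, PSMC4, PSMD1 and PSMD11 of the cap, with differences from 0.18 to 0.28. PSMA7 read 11.51, 11.50 and 11.84 and then 11.53, 11.56 and 11.64 in 22RV1, and 12.03, 12.10 and 12.40 and then 11.97, 12.02 and 12.27 in LnCaP, so number 3 was highest in each group. The catalytic subunit PSMB5 had 0.00 ± 0.04. Differences of this size sat near the limit of the test: 1 subunit was called without the untreated 22RV1 array numbered 3, 4 and 6 without the untreated and nicotine-treated LnCaP arrays numbered 3, 7 without any 1 of the untreated 22RV1 arrays 1 and 2 and the nicotine-treated 22RV1 array 1, 7 with the 3 prime over 5 prime measure, and 7 when same-numbered arrays of a line were treated as a block.

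**Figure D2:**
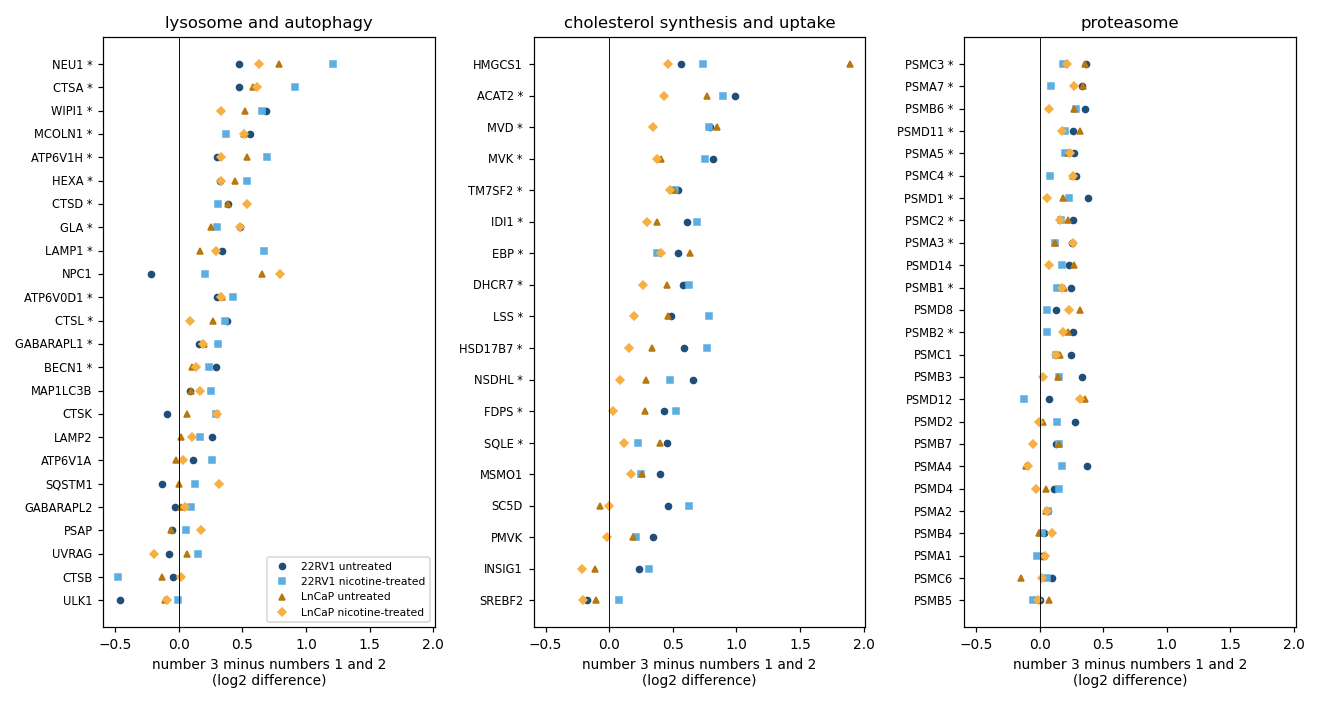
Number 3 difference (log2, x axis) of each measured gene of 3 lists in each of the 4 groups, 1 symbol a group, with genes ordered by their mean; a star marks a gene called over both lines. The 13 starred lysosome and autophagy genes, the 12 starred sterol genes and the 11 starred proteasome genes lie to the right of 0 in all 4 groups.

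Among single genes with the largest shared differences, those raised in both lines were GPNMB, RBM3 and GCG. GPNMB, a glycoprotein of lysosomes and melanosomes, read 5.86, 5.46 and 6.71 in untreated 22RV1 and 5.65, 5.68 and 7.14 with nicotine. In LnCaP it read 6.97, 7.19 and 7.95 untreated and 6.77, 6.94 and 8.40 with nicotine. The arrays numbered 3 lay above all others of their line, and the difference was 1.23 ± 0.11, or 2.35-fold (adjusted p = 0.000464). RBM3, an RNA-binding protein known for its rise at mild cold, read 9.24, 9.06 and 10.12 and then 8.74, 8.76 and 9.72 in 22RV1, and 8.75, 8.79 and 10.002 and then 8.69, 8.16 and 10.04 in LnCaP. Its difference was 1.20 ± 0.12, and its second probe set gave 0.63. CIRBP, the other classic cold-inducible RNA-binding protein, had 0.08 ± 0.07 and did not pass. GCG, which encodes the gut and islet hormone precursor proglucagon, had 1.37 ± 0.23 in 22RV1 and 0.88 ± 0.23 in LnCaP, at levels of 4.27 to 6.34 that lie in the dimmer part of the array.

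Genes lowered in both lines were led by CHST15, SLC30A1, STMN4, PTGER4 and NMNAT2. CHST15, which sulfates chondroitin chains, read 8.61, 8.26 and 7.54 and then 8.67, 8.64 and 7.58 in 22RV1, and 6.57, 6.56 and 5.11 and then 6.99, 6.92 and 5.07 in LnCaP. Its difference was -0.99 ± 0.12 in 22RV1 and -1.67 ± 0.12 in LnCaP, and the test between the lines gave an adjusted p of 0.0516. SLC30A1, the zinc exporter that rises with cellular zinc, read 9.33, 8.98 and 7.39 and then 8.74, 8.81 and 7.05 in 22RV1. In LnCaP it read 8.78, 8.26 and 7.23 untreated and 7.92, 8.01 and 7.45 with nicotine, so that the smallest drop was that of nicotine-treated LnCaP. STMN4 (-1.07 ± 0.15) binds tubulin, PTGER4 (-1.02 ± 0.13) is a prostaglandin E receptor and NMNAT2 (-0.97 ± 0.09) makes NAD; in all 3 the arrays numbered 3 were the lowest of every group. The second PTGER4 probe set gave -0.34. ALDH5A1, which breaks down the transmitter GABA, fell in LnCaP (-1.60 ± 0.13) and had -0.39 ± 0.13 in 22RV1, which did not pass; its second, dimmer probe set gave -0.44 in LnCaP and -0.48 in 22RV1.

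**Figure D3:**
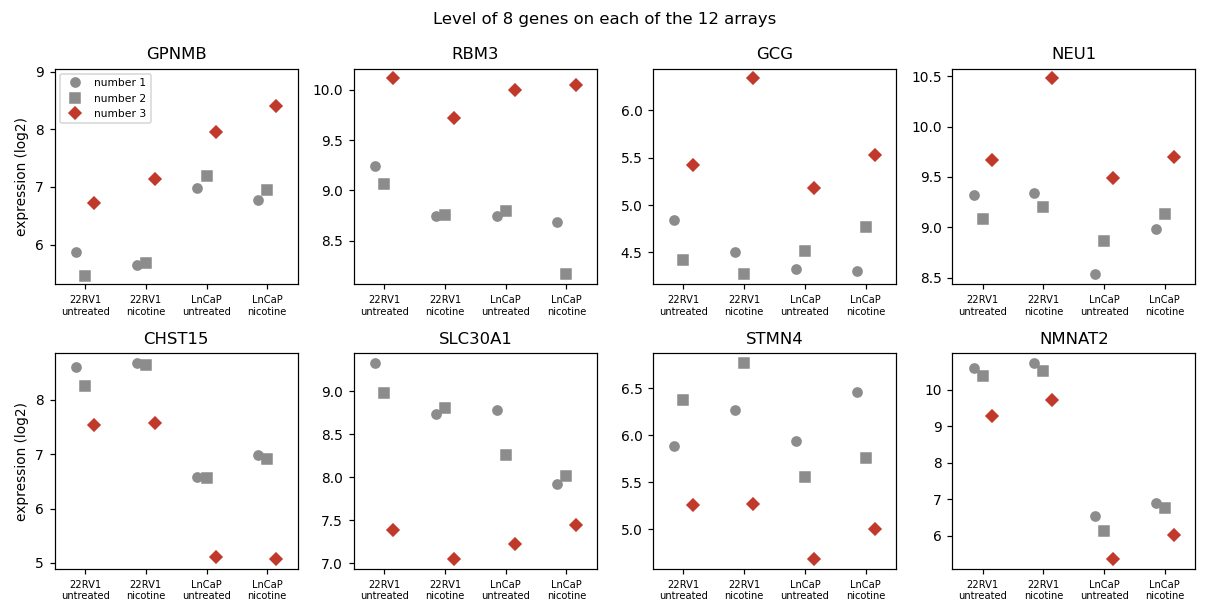
Log2 level (y axis, a separate scale in each panel) of 8 genes on each of the 12 arrays, 1 point an array, grouped by line and treatment. The arrays numbered 3 (diamonds) lie above numbers 1 and 2 in all 4 groups for GPNMB, RBM3, GCG and NEU1 and under them for CHST15, SLC30A1, STMN4 and NMNAT2.

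The other 12 of the 20 genes with the largest called differences over both lines drew their mean from 1 line, as the test between the lines showed for each. The differences of FGL1, CDH17, AKR1C1, ASB9, SDC2, CCN2 and ALB were 1.77 to 2.42 in 22RV1 and 0.06 to 0.45 in LnCaP, with none called in LnCaP, and those of AKAP12, DKK1, CEMIP and PDE4B were -2.39 to -1.84 in 22RV1 and -0.26 to -0.08 in LnCaP; ALDH5A1 is given above. When the arrays of a line with the same number were treated as a block, the calls over both lines were lost for CDH17, ALB, CEMIP and PDE4B, with adjusted p of 0.0535, 0.0563, 0.0546 and 0.0518. They were also lost for these and for CCN2, AKAP12, DKK1 and AKR1C1 with array weights, where p was 0.0522 to 0.0924. The same calls were lost in limma with trend and robust settings, with adjusted p of 0.0557 to 0.0902.

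Heat shock genes were lower where they differed, and some genes of glycolysis and glucose sensing fell. Of 13 measured heat shock genes, 4 were called lower and 0 higher: HSPH1 (-0.38), HSP90AA1 (-0.29), BAG3 (-0.35) and DNAJA1 (-0.15), and 7 of the 13 lay under both other arrays in all 4 groups, as 9.15% of all genes did. HSP90AA1 read 12.83, 12.89 and 12.73 and then 12.96, 12.97 and 12.75 in 22RV1, and 13.26, 13.22 and 12.78 and then 13.20, 13.26 and 12.87 in LnCaP, with number 3 lowest each time. The count of 4 was 2 under a common array median, array weights or the block within a line, 7 with the block over both lines and 1 with the 3 prime over 5 prime measure, and it was 1 or 2 without 10 of the 12 arrays, 1 being left without the nicotine-treated LnCaP array numbered 3. Of 19 chaperones of the endoplasmic reticulum, EDEM1 was higher (0.43) and HSP90B1 lower (-0.29), with a median of -0.0036. The HSP90B1 call was lost with the mean of probe sets. Of 33 genes of hypoxia and glycolysis, 6 were lower and 1 higher, with a median of -0.03: ENO2 (-0.81 ± 0.12), the glycolysis activator PFKFB3 (-0.55 ± 0.13), CA12, P4HA1, VEGFA and MXI1, with PDK1 (0.36) the higher one, a call lost without any 1 of 9 arrays, under the block within a line and with the 3 prime over 5 prime measure. ENO2 read 10.49, 10.45 and 9.91 and then 10.41, 10.56 and 10.11 in 22RV1, and 8.77, 8.63 and 7.42 and then 9.10, 9.04 and 8.04 in LnCaP, where the drop was larger by the test between the lines (-0.68 ± 0.12, adjusted p = 0.0154). The same test called 5 genes of the list with the higher value in LnCaP, namely HK2 (0.71), PFKFB3 (0.70), P4HA1 (0.61), EGLN1 (0.60) and ADM (0.55). The ENO2 side of this test had 0 calls without the nicotine-treated 22RV1 or the untreated LnCaP array numbered 3 and with the 3 prime over 5 prime measure. The other side had 0 without either of the same arrays, 1 with the measure or without the nicotine-treated LnCaP array numbered 3, and 2 or 3 without any 1 of the untreated 22RV1 arrays, the nicotine-treated 22RV1 array numbered 1 or the untreated LnCaP array numbered 1. Over both lines the list had 3 lower genes without the untreated 22RV1 array numbered 3. TXNIP, which rises with glucose through MondoA, was lower over both lines (-0.68 ± 0.12): it read 12.46, 12.31 and 11.24 and then 12.31, 12.43 and 11.57 in 22RV1, and 12.01, 12.03 and 11.38 and then 12.25, 12.47 and 12.24 in LnCaP, where the nicotine-treated array numbered 3 lay just under its group. Its other 2 probe sets gave -0.69 and -0.79. KLF10, the other called MondoA target of 3 measured, had -0.46 ± 0.13. The list's count of 2 was 1 without any 1 of 10 arrays, with array weights, under the block within a line or with the 3 prime over 5 prime measure.

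Metallothioneins, the small zinc- and copper-binding proteins of chromosome 16, were lower in 22RV1 and not called in LnCaP. Of 9 genes of the metallothionein and zinc list, MT1E, MT1X, MT1H, MT1F and SLC30A1 were called lower in 22RV1, and SLC30A1 in LnCaP. The list's median was -1.11 in 22RV1 and 0.20 in LnCaP, where 8 of the 9 had a positive difference. A median over both lines thus mixes opposite directions. MT1X read 10.05, 10.40 and 9.64 in untreated 22RV1 and 9.14, 10.14 and 7.13 with nicotine, and MT2A read 11.23, 11.62 and 11.23 and then 10.61, 11.43 and 8.69. The nicotine-treated 22RV1 array numbered 3 was thus the lowest by far. The untreated one lay nearer its group, though under both others for MT1X. Without the nicotine-treated 22RV1 array numbered 3, 1 of the 5 genes was called, and the list's median over both lines, -0.42, was 0.081. The count was 3 without any 1 of 8 other arrays of the 2 lines, with array weights or with the 3 prime over 5 prime measure, and 2 with trend and robust settings or with the 22RV1 arrays alone. MT1 genes are near-identical copies whose probes can take up each other's RNA, so the single members are uncertain. The second MT1E probe set gave -0.22 in 22RV1 against -1.69 for the one used. The second MT1X probe set gave -1.33 in 22RV1 and 1.07 in LnCaP, against -1.55 and 0.62 for the one used.

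In 22RV1 the largest rises included genes known from gut and liver cells, beside RCAN2 and AKR1C1. APOH, a plasma protein made by liver, read 5.05, 5.18 and 7.46 untreated and 4.51, 5.0 and 7.73 with nicotine, a difference of 2.66 ± 0.15 or 6.33-fold. CDH17, an intestinal cadherin, read 5.02, 4.74 and 7.16 and then 5.03, 4.84 and 7.5. FGL1, a secreted liver protein, read 5.71, 5.87 and 7.78 and then 5.66, 5.74 and 8.29. All 3 left a gap of over 1 log2 unit between the arrays numbered 3 and the rest. In a list of 34 gut and liver genes added after these values were seen, 16 were higher in 22RV1 and 0 lower (median 0.80), among them ALB (1.91), SLC26A3 (2.20), CYP2C8 (2.10), the stem-cell receptor LGR5 (1.89), SPINK1 (1.41), SI (1.52) and TTR (1.16). The list holds APOH, CDH17 and FGL1 themselves, so its counts and median are not a separate observation. In LnCaP 2 of the 34 were higher (TSPAN8 and GCG) and 2 lower (UGT2B15 and UGT2B28), and the test between the lines called 13 genes, each with the higher value in 22RV1. ALB read 10.82, 10.61 and 12.38 and then 10.08, 10.31 and 12.35 in 22RV1, and 3.43 to 4.10 on every LnCaP array, a level near the floor of the array. The 22RV1 count was 12 to 19 with 1 array left out. Both LnCaP counts were 0 without the untreated LnCaP array numbered 3 and with the 3 prime over 5 prime measure. Without the nicotine-treated LnCaP array numbered 3 they were 1 higher and 0 lower, and without its array numbered 1 they were 1 and 1. The higher count was also 1 without the untreated LnCaP or nicotine-treated 22RV1 array numbered 1 and 4 with array weights, and the lower count 1 without the nicotine-treated LnCaP array numbered 2 or with trend and robust settings.

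Other genes raised in 22RV1 were aldo-keto reductases of chromosome 10, which reduce steroids and aldehydes. AKR1C1 read 8.70, 8.85 and 10.89 and then 8.67, 8.58 and 11.12 in 22RV1 and 6.46 to 6.78 in LnCaP, a difference of 2.30 ± 0.11 in 22RV1 and 0.16 ± 0.11 in LnCaP. AKR1C2 (2.24 ± 0.15) and AKR1C3 (1.70 ± 0.15) rose in 22RV1 too; the copies are alike, so their probes may not be separate. Other NRF2 targets were called less widely over both lines: GCLM (0.36), GSR (0.29), FTL (0.22) and PGD (0.18) joined AKR1C1, 5 of 20 in all. That count was 3 under the block within a line, 2 with array weights, 8 with the line terms averaged, 1 without either 22RV1 array numbered 3, and 2 or 3 without any 1 of the other 22RV1 arrays, the untreated LnCaP array numbered 2 or the nicotine-treated LnCaP array numbered 3. RCAN2, an inhibitor of calcineurin, rose by 2.45 ± 0.17, and the syndecan SDC2 by 1.77 ± 0.14 with 3 probe sets at 1.45 to 1.77. Of 37 interferon-stimulated and antigen-presentation genes 9 were higher and 2 lower in 22RV1, against 5.79% and 7.31% of all genes. The higher included HLA-C (1.12 ± 0.15), HLA-E, HLA-B, HLA-F and B2M (0.58 ± 0.10) with IFIH1, IFI35 and ISG15. The lower were BST2 (-0.67) and ISG20 (-0.51). HLA-C read 8.39, 8.67 and 9.27 and then 8.23, 8.41 and 9.81, and 1 of these 9 was called without the nicotine-treated 22RV1 array numbered 3. HLA genes are alike in sequence, which leaves their single values uncertain.

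Genes lowered in 22RV1 were led by the scaffold protein AKAP12, tissue factor F3, the Wnt inhibitor DKK1, the hyaluronan-degrading CEMIP and the phosphodiesterase PDE4B. AKAP12 read 8.20, 8.62 and 5.94 untreated and 8.52, 8.88 and 6.38 with nicotine, a difference of -2.39 ± 0.14. F3 read 9.16, 9.15 and 6.84 and then 9.09, 9.09 and 6.70. DKK1 read 10.03, 9.18 and 7.87 and then 8.71, 8.65 and 6.32, with a spread among the other arrays too. In LnCaP all 5 lay low on the array, with levels of 3.77 to 6.18, and none was called. CCN2, which YAP is known to induce, rose in 22RV1 (1.88 ± 0.15) and so did NT5E (1.24 ± 0.09). F3, ASAP1, WWC1 and ARHGEF17 of the same list fell. Thus 2 of 19 YAP-linked genes were higher and 4 lower there, against 5.79% and 7.31% of all genes. The lower count was 2 without the nicotine-treated 22RV1 array numbered 3. Immediate early genes, which growth factors and stress induce within minutes, were lower in 22RV1 in 6 of 22 cases, against 7.31% of all genes. KLF4 (-1.04), NR4A1 (-0.66), EGR1 (-0.56), ATF3 (-0.55) and DUSP1 (-0.53) were among them. In 22RV1 the other KLF4 probe set gave -1.06, the 2 other NR4A1 probe sets -0.17 and -0.07 and the other EGR1 probe set -0.006. The count of 6 was 1 without the untreated and 3 without the nicotine-treated array numbered 3. CHGB, a granin of secretory vesicles, fell by 1.38 on the log2 scale in 22RV1.

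In LnCaP the largest rise was that of S100P, a calcium-binding protein, which read 7.88, 7.99 and 9.50 untreated and 6.82, 6.93 and 9.40 with nicotine, 4.13-fold on average. In 22RV1 S100P moved the other way, from 12.31 and 12.13 to 11.09 and from 12.51 and 12.35 to 11.26. ANGPT2, a ligand of the endothelial receptor TEK, read 5.20, 5.22 and 6.72 and then 4.98, 5.14 and 6.98 in LnCaP and 4.59 to 4.86 in 22RV1. The epithelial factor ELF5 (1.56 ± 0.19) and the tetraspanin TSPAN8 (1.41 ± 0.18) rose as well. GNAI1, a G protein subunit (1.60 ± 0.40), was the least secure of the 6 largest rises, since its arrays numbered 1 and 2 lay at 5.22 and 7.17 in untreated LnCaP; its call was lost with trend and robust settings (adjusted p = 0.0969), with the 3 prime over 5 prime measure (0.149) and with the LnCaP arrays alone (0.112). With that measure in the model TSPAN8, MATN2, TYRP1, PRR16, GPNMB, GCG, SLC30A1 and UGT2B15 had LnCaP differences of the same sign with adjusted p of 0.0636 to 0.39.

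The largest falls in LnCaP were of MATN2, TM4SF1, TYRP1, CHST15, ALDH5A1 and PRR16. MATN2, a matrix protein, read 4.87, 5.86 and 3.52 and then 6.48, 5.65 and 3.82. TM4SF1, a membrane protein of many carcinomas, read 9.31, 9.83 and 7.51 and then 8.56, 8.42 and 7.09, and 2 of its 3 other probe sets gave -1.82 and -1.63 in LnCaP while the dimmest gave -0.10. Genes of the contractile cytoskeleton, a list added after the values were seen, were lower in 6 of 23 cases and higher in 0 (median -0.23): the smooth muscle actins ACTA2 (-1.54 ± 0.24) and ACTG2 (-1.57 ± 0.32), the myosin light chain MYL9 (-1.18), VIM (-1.22 ± 0.16), PARVA (-0.66) and ACTN1 (-0.36). ACTA2 read 9.02, 10.06 and 7.68 and then 8.18, 8.49 and 7.12, so its arrays numbered 1 and 2 differed by up to 1 log2 unit as well. In LnCaP the other probe sets of ACTN1 gave -0.09 and 0.05 and those of PARVA -0.55 and -0.17. The other ACTA2 probe set, near the floor, gave -0.12. The count was 0 without the untreated and 3 without the nicotine-treated LnCaP array numbered 3, 3 with the LnCaP arrays alone and 0 with the 3 prime over 5 prime measure. TAGLN, another smooth muscle protein, had 0.17 ± 0.16 in LnCaP.

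Some genes of amino acid shortage and the integrated stress response were higher in LnCaP and others lower in 22RV1. In LnCaP 6 of 24 were higher and 1 lower, against 3.08% and 4.57% of all genes. The higher were CTH, SLC3A2, TRIB3, NUPR1 and SLC7A11 at 0.44 to 0.52 and PSAT1 at 0.26, and the lower was SLC7A1 (-0.31). The SLC7A1 call in LnCaP was lost without any 1 of 5 of the 6 LnCaP arrays, with the mean of probe sets, with the 3 prime over 5 prime measure and with the LnCaP arrays alone, and its 4 other probe sets gave -0.12 to 0.09 there. SLC3A2, the heavy chain of several amino acid carriers, read 8.41, 8.40 and 8.87 and then 8.32, 8.38 and 8.90 in LnCaP. In 22RV1 0 were higher and 6 lower, against 5.79% and 7.31% of all genes. The lower included DDIT4 (-0.72), ATF3 and VEGFA. The test between the lines called DDIT4 (1.08) and SLC7A11 (0.52) alone of the 24 genes. That count of 2 was 0 without the nicotine-treated 22RV1 array or either LnCaP array numbered 3, and 1 without any 1 of 8 other arrays, under a common median, with array weights or with the 3 prime over 5 prime measure. The LnCaP count was 0 without either array numbered 3 and 1 with the 3 prime over 5 prime measure, and the 22RV1 count was 1 without the untreated array numbered 3, 2 without the nicotine-treated 22RV1 array of any number, and 3 under a common median, with array weights or without the nicotine-treated LnCaP array numbered 1.

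The number 3 difference itself differed between the lines for 383 genes (3.2% of 11963), 167 (1.4%) with the higher value in LnCaP and 216 (1.81%) with the higher value in 22RV1. Androgen-regulated genes stood on both sides of this test. Of 23 measured genes that androgen is known to induce in prostate cells, 6 differed with the higher value in LnCaP and 0 the other way: KLK3 (1.46 ± 0.13), ELL2 (1.05), FKBP5 (1.04), KLK2 (0.82), EAF2 (0.76) and PMEPA1 (0.61). Of 16 that androgen represses, 6 differed with the higher value in 22RV1 and 0 the other way: UGT2B15, SI, UGT2B17, DDC, NTS and OPRK1.

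KLK3 read 9.31, 9.34 and 8.24 in untreated 22RV1 and 9.04, 8.97 and 7.74 with nicotine, a fall to a 2.26-fold lower level (adjusted p = 6.02e-05). In LnCaP it read 12.99, 13.05 and 13.12 and then 12.67, 12.67 and 13.14, a difference of 0.29 ± 0.09 that did not pass. Its second probe set gave -1.22 in 22RV1 and 0.25 in LnCaP. KLK2, the neighbouring protease, fell in 22RV1 (-1.18 ± 0.13) and had -0.36 ± 0.13 in LnCaP, where untreated arrays read 10.74, 10.70 and 10.03 and nicotine-treated arrays 9.79, 9.67 and 9.70. FKBP5, the chaperone partner of steroid receptors, read 10.53, 10.72 and 10.17 and then 10.71, 10.95 and 9.82 in 22RV1, and 8.08, 7.47 and 8.11 and then 7.18, 7.21 and 7.47 in LnCaP. Within 22RV1, 9 of the 23 induced genes were lower and 2 higher (GNMT and C1orf116, with TSC22D3, ABCC4 and CAMKK2 also among the lower); within LnCaP 3 were higher and 0 lower, GNMT (1.00 ± 0.15) and MAF (0.80 ± 0.15) among them. The LnCaP count was 0 and 1 without the untreated and nicotine-treated LnCaP array numbered 3, 0 with the 3 prime over 5 prime measure and 5 with trend and robust settings. GNMT thus rose in both lines, against the direction of KLK3 in 22RV1.

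UGT2B15, an enzyme that inactivates androgens by glucuronidation, had the widest difference between the lines. It read 7.44, 7.86 and 9.69 and then 7.49, 7.83 and 10.54 in 22RV1, and 10.78, 11.56 and 9.71 and then 11.60, 11.80 and 10.24 in LnCaP. The arrays numbered 3 were highest in 22RV1 and lowest in LnCaP in every group, and the difference between the lines was -3.92 ± 0.33. A second UGT2B15 probe set gave 2.28 and -1.84 in the 2 lines and another, near the floor, 0.36 and -0.43; the UGT2B genes are close copies, so UGT2B17 (-1.50 ± 0.22 in LnCaP) may share signal with it. NTS, which encodes neurotensin, read 4.46, 4.92 and 3.77 and then 5.61, 5.76 and 4.19 in LnCaP, and OPRK1, an opioid receptor, 5.96, 6.13 and 5.30 and then 7.30, 7.15 and 6.13, both lowest on number 3. DDC, which makes dopamine, rose in 22RV1 (1.49 ± 0.11) and had 0.12 ± 0.11 in LnCaP. SI, an intestinal enzyme that the gut and liver list holds too, read 3.14, 3.02 and 4.14 and then 3.40, 3.49 and 5.43 in 22RV1.

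The luminal prostate markers as a set were lower on the 22RV1 arrays numbered 3 and showed no shift in LnCaP. Their mean over 9 measured genes was 9.83 to 9.87 on the 22RV1 arrays numbered 3 and 10.2 to 10.5 on the others. It was 10.9 to 11.1 on all LnCaP arrays. KLK3, KLK2, KRT8 and KRT18 were called lower in 22RV1, 2 being called without the nicotine-treated array numbered 3. KLK3 and KLK2 are also in the androgen-induced list, so the marker set is not a separate observation. Leaving out 1 array lowered the count of 6 induced genes between the lines to 2 (without the untreated or nicotine-treated 22RV1 array or the untreated LnCaP array numbered 3) or 3 (without the nicotine-treated LnCaP array numbered 3 or either line's nicotine-treated array numbered 1), and the 3 prime over 5 prime measure to 1. The count of 9 lower in 22RV1 was 4 and 3 without the untreated and nicotine-treated array numbered 3. The count of repressed genes called between the lines was 4 to 7 with 1 array left out. In 22RV1, 7 repressed genes were higher, and 3 or 4 without the array numbered 1 or 3 of either treatment, 4 with array weights and 3 with the 22RV1 arrays alone; in LnCaP 4 were lower, 2 without the untreated array numbered 3 and 1 with the 3 prime over 5 prime measure.

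**Figure D4:**
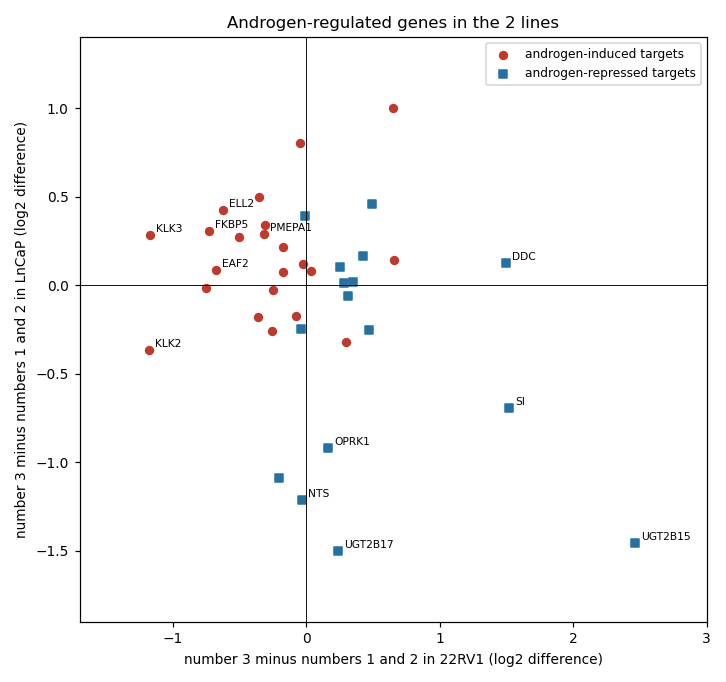
Number 3 difference (log2) in 22RV1 (x axis) and LnCaP (y axis) of 23 androgen-induced genes (circles) and 16 androgen-repressed genes (squares), with names for the genes named as different between the lines. KLK3, KLK2, FKBP5, ELL2 and EAF2 lie to the left of 0, and UGT2B15, SI and DDC lie far to the right.

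Some genes outside these lists were called in opposite directions. S100A6 was lower in 22RV1 (-1.32) and higher in LnCaP (0.57), as were the phospholipid carrier PLTP (-1.09 and 0.40), the ubiquitin ligase NEDD4L (-0.58 and 0.53) and the complement regulator CD55 (-0.51 and 0.54). The reverse held for ZBTB20, a transcriptional repressor (0.67 and -0.78), ST6GAL1, a sialyltransferase (0.59 and -0.46), SEMA3C (0.56 and -0.65) and the syndecan SDC1 (0.40 and -0.51). PLK2, a p53-induced kinase, fell in LnCaP (-1.47 ± 0.19) and had 0.59 ± 0.19 in 22RV1, while TIGAR, another p53 target, rose in 22RV1 (1.60 ± 0.15) and had 0.31 ± 0.15 in LnCaP. Of 18 p53 targets 3 were higher over both lines (TIGAR, BAX and DDB2) and 0 lower, against 5.96% and 7.77% of all genes. The count was 1 without the nicotine-treated 22RV1 or the untreated LnCaP array numbered 3 and 5 with the block over both lines.

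The lists of growth and housekeeping genes were mixed. Of 33 genes of G2 phase and mitosis, 6 were higher and 0 lower over both lines, namely PLK1, KIF2C, CDC25C, AURKB, HMMR and UBE2C, with a median of 0.11, and in 22RV1 7 were higher with a median of 0.20. KIF2C, a kinesin of the spindle, read 9.35, 9.29 and 9.80 and then 9.0, 9.11 and 9.58 in 22RV1, and 8.66, 8.84 and 9.01 and then 8.13, 8.09 and 8.43 in LnCaP. This count was 2 or 3 without any 1 of 5 of the 6 22RV1 arrays (2 without either array numbered 3), 3 with array weights and 10 with the block over both lines. The 22RV1 count of 7 was 1 without either 22RV1 array numbered 3 and 2 to 4 without either untreated array numbered 1 or 2 or the nicotine-treated array numbered 1. Of 32 genes of G1/S and DNA replication 0 were called over both lines, and the list's median ran from -0.32 in nicotine-treated 22RV1 to 0.40 in nicotine-treated LnCaP. In LnCaP 28 of the 32 had a positive difference (median 0.23), and in 22RV1 11 (median -0.04). The LnCaP difference was above that of 22RV1 for 29. In LnCaP 1 gene was called higher, and between the lines 0 were called. With 1 array left out these counts were 0 to 9 and 0 to 4. Of 37 cytosolic ribosomal proteins 0 were called over both lines, with a median of -0.04. The shift was small but mostly downward: 3 of the 37 had a positive difference. In all 4 groups 9 of the 37 stood under both other arrays, against 9.15% of all genes. Of 12 housekeeping genes, GUSB (0.19) and B2M (0.39) were higher, a count of 0 without either 22RV1 array numbered 3 and 1 without any 1 of 7 other arrays, with array weights, under the block within a line or with the 3 prime over 5 prime measure. The respiratory chain had 4 of 30 higher (NDUFS3, NDUFV2, ATP5F1C and COX8A), against 5.96% of all genes. In all 4 groups 10 of the 30 stood above both other arrays, against 8.23% of all genes. The count of 4 was 0 without the untreated array numbered 3 of either line and 2 without the untreated 22RV1 array numbered 2 or the nicotine-treated 22RV1 array numbered 1, and 7 or 8 with the mean of probe sets, trend and robust settings or the block over both lines. Splicing factors and kinases beside RBM3 were lower for CLK2 (-0.41), RBM5, SRPK1 and RSRP1 of 21, a count that was 0 to 2 without any 1 of 8 arrays, 0 without the untreated 22RV1 array numbered 3, and 2 under the block within a line, array weights or the 3 prime over 5 prime measure.

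Epithelial and matrix genes gave a mixed picture. CDH3, the placental cadherin, was lower in 22RV1 (-0.49 ± 0.13) and LnCaP (-1.24 ± 0.13), and it read 7.05, 7.60 and 6.11 and then 7.73, 7.70 and 6.44 in LnCaP. The gap junction protein GJB1 was higher in 22RV1 (1.29 ± 0.12), while CDH1, DSP, GRHL2, KRT8 and KRT18 were lower there by 0.29 to 0.42; the count of 6 lower genes was 0 to 3 without any 1 of the 22RV1 arrays and 3 with array weights. COL6A1 was lower in both lines on the brightest probe set (-0.69 ± 0.08), while its 7 other probe sets ranged from -0.46 to 0.045. THBS1, a matrix protein, was higher in 22RV1 (1.20 ± 0.16).

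The number 3 difference was not shown to change with nicotine. Averaged over the lines, the difference between nicotine-treated and untreated arrays in it passed the adjusted p for 0 of 11963 genes (0.0%) in limma, with 582 at an unadjusted p under 0.05 and a smallest adjusted p of 0.645, and with 4 residual degrees of freedom the median standard error was 0.13. Changes that run opposite ways in the 2 lines would cancel in this average, and no test within a line was run. The smallest p-values of the averaged test belonged to SLC26A3 (0.82 ± 0.12), ADAMTS9 (0.64 ± 0.10), H1-2 (-0.79 ± 0.12), SYN1, FRAS1, RIN2, YBX2 and PHYH, none of which passed. H1-2, a linker histone, stood 1.12 and 0.96 above the other arrays in untreated 22RV1 and LnCaP and 0.48 and 0.02 above them with nicotine.

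**Figure D5:**
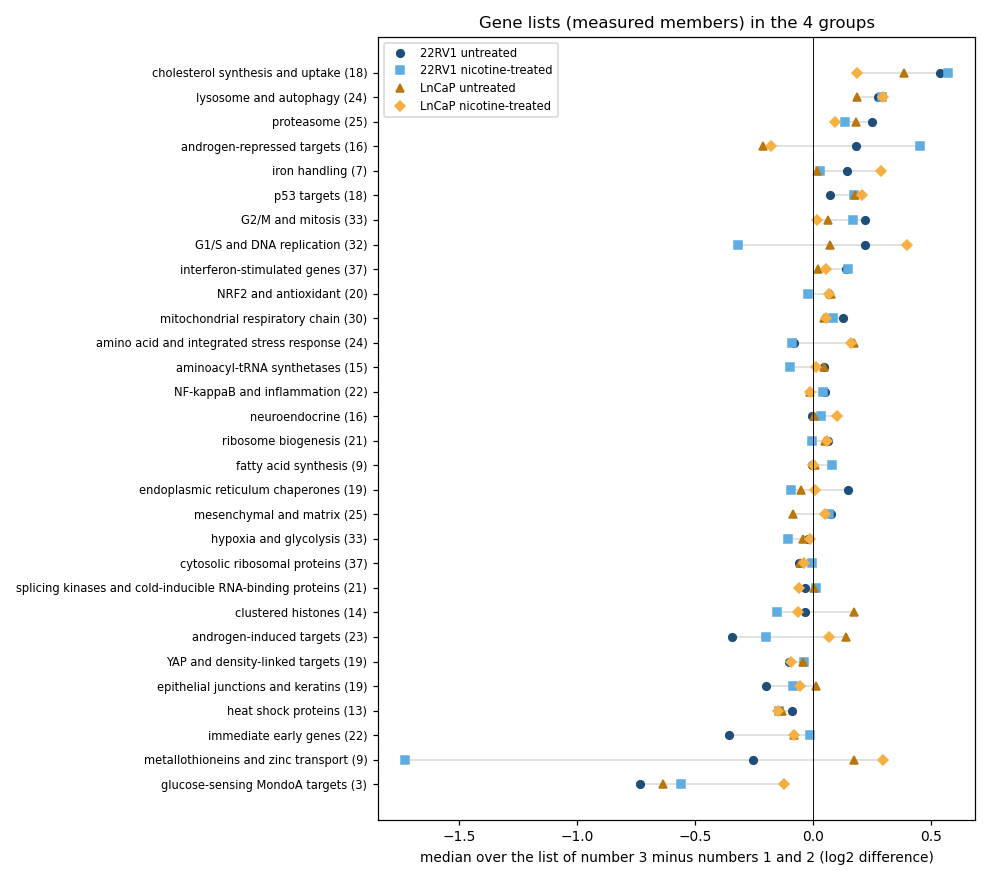
Median number 3 difference (log2, x axis) of 30 gene lists in each of the 4 groups, 1 symbol a group, with the number of measured genes in brackets. The cholesterol, lysosome and proteasome lists lie to the right of 0 in all 4 groups, the androgen lists lie on opposite sides in the 2 lines, and the metallothionein list is lowest in nicotine-treated 22RV1, at -1.73.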

How the data were processed

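The authors deposited log2 expression values of 22277 probe sets on 12 arrays, in a table whose scale is read from the values; RNA and labelling are as given by the labels' protocols. How these were normalized, and with which software, is not given in the sources used here, and detection calls and scanner output were not used here. The number of arrays limits the precision.

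Gene names came from the platform's annotation (19070 with 1 symbol, 1043 with several, 2164 with none), and the probe set with the highest mean stood for each of 11963 genes. The values were fitted as deposited, with no filter, in limma 3.58.1 (R 4.3.3; lmFit, eBayes): a mean for each of 4 groups plus 1 number 3 term, a number 3 term in each line, or one in each group. Tests were two-sided, with Benjamini-Hochberg adjustment over all genes and calls at 0.05; errors are standard errors (SE). Lists are described by counts of called members and medians, with no set test.

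Named genes were the 10 largest called rises and falls over both lines, the 6 in each line, the 8 smallest p-values of each test of a difference, and up to 4 called members of each list; other members were named after their values were seen. The members and lists were chosen with earlier results of these data known. Of 744 listed symbols, 641 were measured, and 4 lists were added after the values were seen. The labels give the same numbers in each group. Over genes, deviations from the group mean of an untreated array and the treated array of its number had r of 0.465, 0.454 and 0.64 in 22RV1. In LnCaP r was 0.371, 0.225 and 0.599, all over 0.1. Each group mean holds number 3, so the number 3 difference alone raises these values for arrays 1 and 2. Array 1 minus array 2, which leaves number 3 out, had r between treatments of 0.246 in 22RV1 and 0.113 in LnCaP. The pairing by number within a line was thus weak for arrays 1 and 2. The fits whose calls are given have no block, and a random block for the number was run as an alternative. Other alternatives were quantile normalization, a common array median, dim genes left out (under 6.66), the mean of probe sets, trend and robust settings, array weights, the 3 prime over 5 prime measure as a covariate, each line alone, and each array left out in turn. The fit was checked on simulated data in which the scatter of each array was independent. That check cannot show the effect of scatter shared by arrays of the same number. Promoters are from RefSeq (GRCh38.p14).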

Additional observations from a re-analysis of the deposited data

Results flagged for a closer look

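The number 3 difference differed between LnCaP and 22RV1 for 383 genes by the test of the difference itself, in limma with Benjamini-Hochberg adjustment. Among the genes named by rule, the LnCaP difference was above the 22RV1 difference by 3.19 log2 units for S100P, 2.45 for F3, 2.14 for AKAP12, 1.93 for CEMIP, 1.86 for DKK1, 1.75 for ANGPT2, 1.69 for PDE4B, 1.38 for ELF5 and 1.21 for PMAIP1. Of these, S100P moved in opposite directions, ANGPT2 and ELF5 were called in LnCaP alone, and F3, AKAP12, CEMIP, DKK1, PDE4B and PMAIP1 were called in 22RV1 alone. The difference was below that of 22RV1 (LnCaP minus 22RV1) by -3.92 for UGT2B15, -2.68 for RCAN2, -2.66 for APOH, -2.59 for AKR1C2, -2.44 for SLC26A3, -2.36 for CDH17, -2.15 for AKR1C1, -1.84 for FGL1, -1.82 for ALB, -1.68 for ASB9, -1.68 for CCN2 and -1.42 for SDC2, all higher on the 22RV1 arrays numbered 3. It was -2.10 for TM4SF1, -1.98 for PRR16, -1.92 for MATN2, -1.76 for TYRP1 and -1.21 for ALDH5A1, which were lower on the LnCaP arrays numbered 3. No explanation was tested for these differences.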

How the results depend on the processing

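No named result reversed its call under the alternatives run. Over both lines the 1642 calls were 1331 to 1788 with another scaling, filter, variance model, weights or probe set rule, 1348 with the 3 prime over 5 prime measure, 2240 with a number 3 term in each line averaged, and 2564 with all 22277 probe sets fitted, which tests more features and was chosen after seeing the data. With the replicate block within a line there were 1206 (estimated correlation 0.149), and with the block over both lines 2731 (correlation -0.09). The blocks moved no count of the single lines (1568 and 916) or of the line difference (383) by over 1.5 times. For LnCaP, there were 70 calls with the 3 prime over 5 prime measure and 435 with the LnCaP arrays alone, which have fewer residual degrees of freedom; for the line difference 86 were called with the measure. The cause was not tested. With 1 array left out, calls numbered 786 to 1602 over both lines, 494 to 1611 in 22RV1, 71 to 912 in LnCaP and 90 to 371 between the lines, lowest there without the untreated LnCaP array numbered 3, then 105 and 237 without the nicotine-treated and untreated 22RV1 arrays and 113 without the nicotine-treated LnCaP array of that number. The treatment difference called 0 genes in each alternative run; leaving out an array numbered 3 could not be fitted there. Of the alternative values of named genes, 6495 kept direction and side of the threshold, 812 lost the call and 36 gained it; 3 changed sign without a call. Of the list medians 2475 moved by less than their spread over groups and 93 by more. The 2 arrays numbered 3 of a line limit the precision of its values.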
